A study of Mus musculus with 9 samples.

Results

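The DNA replication genes described here are a list of 43 genes whose products license, fire and copy the replication origins of a cell in S phase. The list was fixed by name, and 42 of its 43 genes had a probe set that the platform annotation assigned to that gene alone, among 18193 such genes on the array. The remaining gene, Chaf1a, a subunit of the histone chaperone that follows the fork, had none and is not analysed here. Where a gene had several probe sets, the one with the highest mean log2(signal + 12) over the 9 arrays stood for it, and all 42 lay above the brightness threshold for testing, a mean signal of about 8.49.

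The samples were EYFP-positive granulocyte-macrophage progenitors (GMPs), bone marrow cells that give rise to neutrophils and monocytes, with 1 Affymetrix array per sample. There were 3 arrays each of Dicer null (Dicer fl/fl), heterozygous (Dicer -/wt) and wild-type (Dicer wt) cells. Donor cells of all groups came from fetal livers of embryonic day 13.5 that carried a Cebpa-driven Cre and the R26-LSL-Eyfp reporter, in which Cre removes floxed Dicer1 sequence and turns EYFP on, so the sort took cells in which Cre had acted. The cells were grown in irradiated (8.5 Gy) C57BL/6 recipients of 6 to 8 weeks of age and taken 6 to 10 weeks after the transplant. Dicer1 encodes the ribonuclease that makes mature microRNAs, and each comparison asks how transcript levels of the progenitors relate to the loss of 1 or both gene copies. One fetal liver typically served more than 1 recipient, and the labels do not say which samples shared a donor, so p-values measure the spread between these samples only.

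Before S phase, the origin recognition complex with Cdc6 and Cdt1 loads the MCM helicase onto DNA. Cyclin E with its kinase and the Cdc7-Dbf4 kinase then fire the origins, for which Cdc45 and the GINS complex join MCM to make the active helicase. Polymerases, the sliding clamp PCNA and its loader RFC copy the strands, and ribonucleotide reductase, thymidylate synthase and thymidine kinase supply the building blocks. In dividing progenitors such as GMPs these genes are transcribed largely under E2F factors, which act around the entry into S phase.

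The labels and the arrays were compared first. Dicer1 had signals of 115, 101 and 97.2 on null, 169, 201 and 187 on heterozygous and 244, 228 and 223 on wild-type arrays, so the groups did not overlap. The log2 change was -1.07 in null against wild type (limma adjusted p = 1.88e-05), -0.76 in null against heterozygous (0.000429) and -0.31 in heterozygous against wild type (0.217). A second Dicer1 probe set gave -1.12, -0.41 and -0.72 in these comparisons (adjusted p = 7.59e-05, 0.0566 and 0.0101, over probe sets). The 12 GMP markers summed to a signal of 30330 to 32660 on null, 30200 to 35160 on heterozygous and 29950 to 33470 on wild-type arrays, with Mpo and Ctsg the brightest. Among them Fcgr3 rose by 0.37 (adjusted p = 0.00959) and Csf3r fell by 0.38 (0.0182) in null against wild type, and Csf3r fell by 0.40 (0.0144) in null against heterozygous cells. Wild-type replicate 2 stood apart from the other arrays in sex-linked transcripts. The label calls every sample female, which only this array matched, with high Xist and low signal of the Y-linked gene Eif2s3y. Its Xist signal was 2610 and its Eif2s3y signal 1.13, against Xist of 16.4 to 30.2 and Eif2s3y of 622 to 859 on the other 8 arrays. On that array 8 erythroid markers summed to 2553, against 929 to 1602 on the others, and calls of replication genes without it are given beside the results.

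The promoters of these genes are shown first because the genes share an E2F control in textbook accounts. RefSeq promoter windows of build GRCm38.p6 (250 bases before to 50 after a transcript start) were at hand for 34 of the 43 genes. A window of 12 of these 34 genes, 35.3%, held at least 1 of the E2F words TTTGGCGC, TTTCGCGC, TTTGCCGC and TTTCCCGC on either strand. The share was 32.5% for 40 further replication genes, 4.62% for 10007 genes tested here, and 2.6% for all 27025 genes of the promoter table. The 12 genes were Orc1, Cdc6, Cdt1, Mcm3, Mcm5, Mcm6, Mcm7, Pola1, Pold1, Rfc3, Lig1 and Uhrf1. Of the 5 genes that changed between null and wild-type cells, 3 had a window, and 0 of the 3 held such a word. Of the 5 that changed between null and heterozygous cells, 3 had a window and 1, Uhrf1, held one. The windows of 6 genes are printed 5′ to 3′, with the words in capitals. In Mcm5 a pair of words overlaps, as does a pair in Mcm6, while Cdc6 and Uhrf1 hold 1 each. Rrm2 and Tk1, both of which changed, hold none.
Mcm5, chr8:75109259-75109558, plus strand: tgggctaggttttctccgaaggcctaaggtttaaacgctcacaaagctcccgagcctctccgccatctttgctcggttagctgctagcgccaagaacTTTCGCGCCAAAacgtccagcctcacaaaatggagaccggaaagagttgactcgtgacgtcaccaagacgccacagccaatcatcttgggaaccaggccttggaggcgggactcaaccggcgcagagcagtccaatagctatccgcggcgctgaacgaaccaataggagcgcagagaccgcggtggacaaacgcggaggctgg
Mcm6, chr1:128359656-128359955, minus strand: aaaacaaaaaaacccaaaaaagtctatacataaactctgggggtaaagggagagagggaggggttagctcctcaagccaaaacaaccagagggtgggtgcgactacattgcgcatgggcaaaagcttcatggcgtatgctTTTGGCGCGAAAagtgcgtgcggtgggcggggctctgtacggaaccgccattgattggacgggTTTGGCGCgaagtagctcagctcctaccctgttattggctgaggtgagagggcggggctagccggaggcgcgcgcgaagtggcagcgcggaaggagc
Cdc6, chr11:98907901-98908200, plus strand: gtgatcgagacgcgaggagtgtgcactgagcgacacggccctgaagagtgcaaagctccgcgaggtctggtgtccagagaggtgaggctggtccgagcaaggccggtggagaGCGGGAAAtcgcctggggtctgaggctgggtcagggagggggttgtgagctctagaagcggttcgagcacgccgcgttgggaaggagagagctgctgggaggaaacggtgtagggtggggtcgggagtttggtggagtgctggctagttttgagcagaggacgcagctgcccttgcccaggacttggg
Uhrf1, chr17:56304063-56304362, plus strand: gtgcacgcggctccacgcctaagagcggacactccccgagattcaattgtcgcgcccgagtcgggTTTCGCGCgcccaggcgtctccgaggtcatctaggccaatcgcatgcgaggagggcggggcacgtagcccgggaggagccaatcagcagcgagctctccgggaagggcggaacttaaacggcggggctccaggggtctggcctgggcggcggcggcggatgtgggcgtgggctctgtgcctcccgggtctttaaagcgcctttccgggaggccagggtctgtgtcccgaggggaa
Rrm2, chr12:24708004-24708303, plus strand: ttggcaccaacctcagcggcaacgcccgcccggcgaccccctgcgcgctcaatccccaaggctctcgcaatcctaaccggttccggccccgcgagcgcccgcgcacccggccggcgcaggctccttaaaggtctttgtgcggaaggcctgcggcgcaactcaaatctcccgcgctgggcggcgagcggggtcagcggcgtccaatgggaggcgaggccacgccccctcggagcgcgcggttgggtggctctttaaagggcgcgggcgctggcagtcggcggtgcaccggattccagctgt
Tk1, chr11:117825965-117826264, minus strand: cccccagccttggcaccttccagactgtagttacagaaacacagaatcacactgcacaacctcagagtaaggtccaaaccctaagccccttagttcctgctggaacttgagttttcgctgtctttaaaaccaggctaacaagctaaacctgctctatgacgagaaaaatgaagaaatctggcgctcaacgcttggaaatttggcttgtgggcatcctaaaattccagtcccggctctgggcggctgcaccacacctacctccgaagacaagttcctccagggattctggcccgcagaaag
The capital words of Mcm6 begin 110, 106 and 47 bases before the transcript start, those of Mcm5 153 and 149 bases before it, and that of Cdc6 138 bases before it. The match of letters is a description only, and no factor binding was measured.

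Most replication genes did not pass the test in any comparison. Of the 42 genes, 2 rose and 3 fell in null against wild-type cells, a called share of 11.9% beside 15.7% of all 12347 genes tested (7.6% higher and 8.09% lower; limma, adjusted p under 0.05). The cyclin gene Ccne2 and the ribonucleotide reductase gene Rrm2 rose, and the clamp loader genes Rfc2 and Rfc5 and the thymidine kinase gene Tk1 fell. In null against heterozygous cells 1 rose (Ccne2) and 4 fell (Rfc2, Rfc5, Tk1 and the hemimethylated-DNA binding protein gene Uhrf1), also 11.9%, beside 14.3% of all genes (6.84% higher and 7.49% lower). In heterozygous against wild-type cells limma called 0 of the 42 genes, beside 1.39% of all genes (0.697% in each direction). An unadjusted p under 0.05 was reached by 5 of the 42 genes there (12.9% of all genes), by 11 in null against wild type (29% of all) and by 10 in null against heterozygous cells (27.9% of all). Both comparisons of null cells use the same 3 null arrays, and their results are not independent. In sorted cells measured in bulk, fewer cells in S phase and less RNA per cell cannot be told apart.

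The median log2 change of the 42 genes was -0.06 in null against wild type, where that of all genes tested was -0.04. It was -0.02 in null against heterozygous cells, with all genes at -0.03, and 0.005 in heterozygous against wild-type cells, with all genes at -0.008. The change lay below 0 for 25, 26 and 20 of the 42 genes in these 3 comparisons, beside 56.1%, 54.4% and 52% of all genes. The arrays had been scaled to a common brightness before deposit, so a change shared by most transcripts would not show. In null against wild type 12 of the 42 genes had groups without overlap (5 higher, 7 lower), beside 33% of all genes (14.1% higher, 19% lower). In null against heterozygous there were 12 (3 higher, 9 lower), beside 32.7% (14.7% higher, 18% lower). In heterozygous against wild type there were 10 (6 higher, 4 lower), beside 18.3% (8.48% higher, 9.78% lower).

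The 95% intervals bound these changes. The 95% interval of the log2 change lay wholly inside a 1.5-fold change in either direction for 39 of the 42 genes in null against wild type, 38 in null against heterozygous and 41 in heterozygous against wild type. For all genes tested the shares were 55.8%, 56.7% and 67.9%. All 42 intervals lay inside a 2-fold change in each comparison. Inside a 1.25-fold change lay 20 in null against wild type, 24 in null against heterozygous and 28 in heterozygous against wild type, beside 14.6%, 14.9% and 22.8% of all genes. The median spread within a genotype was 0.096 on the log2 scale for the 42 genes and 0.172 for all genes tested, and this sets part of the width of those intervals. Mean log2 values of the 42 genes ran from 5.75 for Tyms to 11.98 for Mcm7, while tested genes reached down to 4.36. Neither the shares nor the spread were compared at matched brightness. No array carried the list as a whole, since the mean deviation of the 42 genes from their own means ran from -0.05 on null replicate 2 to 0.03 on heterozygous replicate 3.

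**Figure D1:**
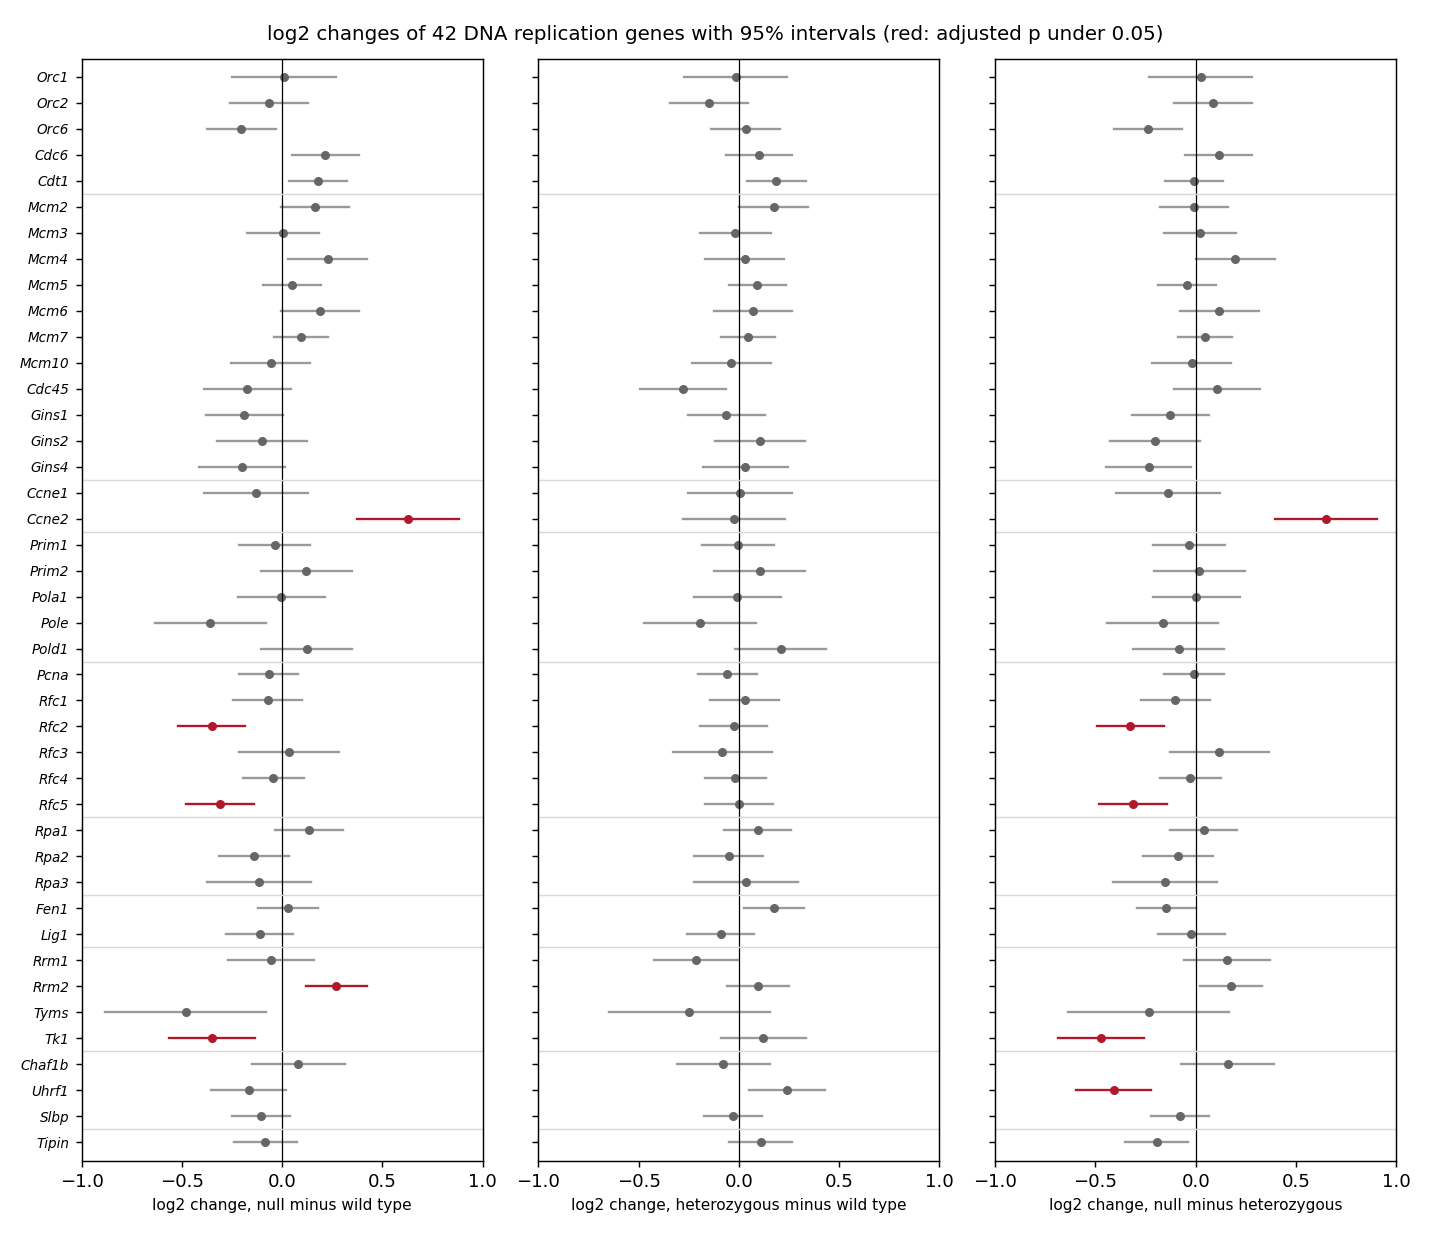
The points give the log2 change of each of the 42 replication genes (rows, grouped by role) in the 3 comparisons, lines give 95% intervals of the limma fit, and red marks an adjusted p under 0.05. All intervals lie between -1 and 1, with 5 red genes in null minus wild type, 0 in heterozygous minus wild type and 5 in null minus heterozygous.

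**Figure D2:**
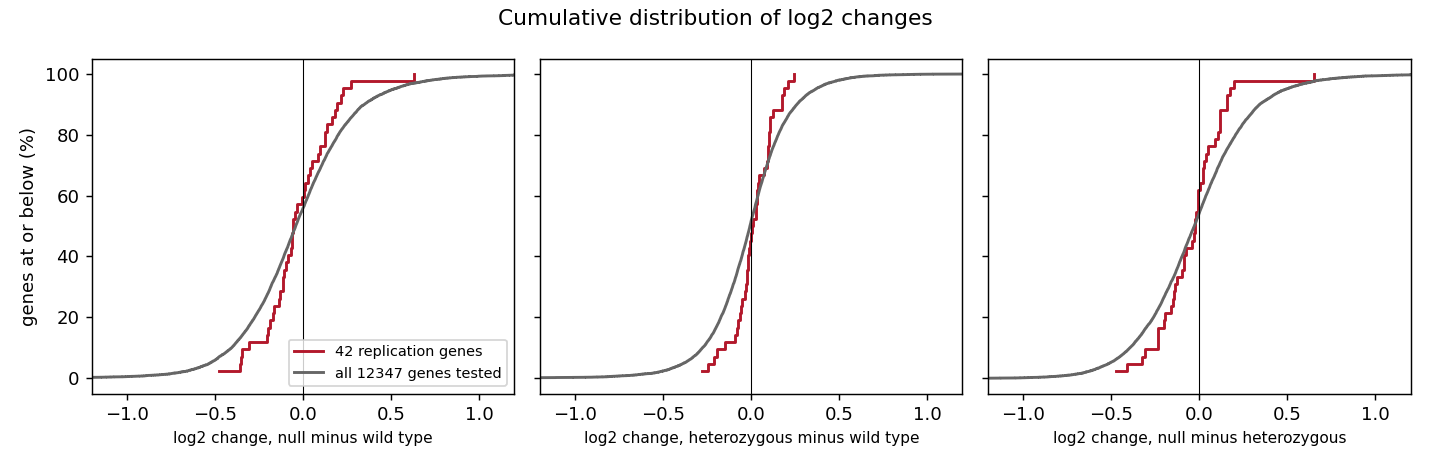
The curves give the percentage of genes (y axis) with a log2 change at or below the value on the x axis, for the 42 replication genes (red) and all 12347 genes tested (grey). The replication genes span -0.48 to 0.63 in null minus wild type, and their medians lie within 0.1 of 0 in each comparison.

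Genes that recognise and license origins did not pass in any comparison. Orc1, Orc2 and Orc6 encode subunits of the origin recognition complex. By their brightest probe sets the first 2 differed by 0.01 and -0.06 between null and wild-type cells. A dimmer Orc1 probe set gave -0.76 in null and -0.62 in heterozygous cells against wild type (limma adjusted p = 0.0788 and 0.3695, over probe sets). Orc6 had signals of 645, 708 and 667 on null, 850.5, 739 and 801 on heterozygous and 811, 756 and 765 on wild-type arrays. All 3 null values lay below the other 6, but the log2 change was -0.20 against wild type (SE 0.08, limma adjusted p = 0.102) and -0.24 against heterozygous (SE 0.08, adjusted p = 0.0632). The difference from heterozygous cells passed with the stricter brightness filter, and both differences passed after quantile normalization. The loading factors did not pass either. Cdc6 read 832, 767 and 811 on null, 701, 723 and 801 on heterozygous and 690, 682 and 698 on wild-type arrays, a difference of 0.22 between null and wild type (adjusted p = 0.0764). Cdt1 read 2863, 3168 and 2848 on null, 2926, 2989 and 3007 on heterozygous and 2726, 2606 and 2502 on wild-type arrays. All null and heterozygous values of Cdt1 lay above the wild-type ones, by 0.18 (adjusted p = 0.09) and 0.19 (adjusted p = 0.24).

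None of the 11 helicase genes passed in any comparison, although Mcm4 was called higher in null against wild type in the fit with the replicate number as a block. The 6 core subunits Mcm2 to Mcm7 form the ring that unwinds DNA, and their log2 differences between null and wild type ran from 0.004 for Mcm3 to 0.23 for Mcm4 (adjusted p = 0.114). These values depended on the probe set: all tested probe sets of the 6 genes ran from -0.23 to 0.43, both for Mcm3, and dimmer ones gave -0.15 for Mcm5 and -0.16 for Mcm7. Mcm4 read 2726, 2929 and 3244 on null, 2335, 2614 and 2806 on heterozygous and 2532, 2294 and 2775 on wild-type arrays. The null and wild-type ranges of Mcm4 overlapped, and its dimmer probe set gave 0.01. Mcm2 read 872, 889.5 and 914 on null, 819.7, 980.0 and 899.7 on heterozygous and 774, 810.0 and 800.0 on wild-type arrays, with no overlap between null and wild type (0.16, adjusted p = 0.191). Mcm6 likewise gave 0.19 by its brighter and -0.06 by its dimmer tested probe set.

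Partners that turn the ring into the active helicase did not pass either. Gins1, Gins2 and Gins4, subunits of the GINS complex, gave -0.19, -0.10 and -0.20 in null against wild type (adjusted p = 0.18, 0.593 and 0.199). Cdc45 gave -0.17 (adjusted p = 0.283), and Mcm10, which helps to activate the helicase, -0.06. Cdc45 read 312, 325 and 402 on null, 324, 328 and 305 on heterozygous and 403, 376 and 390.3 on wild-type arrays. The heterozygous values of Cdc45 all lay below the wild-type ones, by -0.28 on the log2 scale (adjusted p = 0.238), while null replicate 3 lay among the wild-type values. A second, dimmer probe set of Gins2 read 83.9, 92.1 and 85.1 on null, 128, 132 and 129 on heterozygous and 110.3, 112 and 123 on wild-type arrays. When limma was fitted to single probe sets, this one fell by 0.36 in null against wild type (adjusted p = 0.0457) and by 0.52 against heterozygous (adjusted p = 0.0088), whereas the brighter one gave -0.10 and -0.20.

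The E-type cyclins, which activate Cdk2 at the G1/S boundary, gave the one change above 1.5-fold among the 42 genes. Ccne2 had signals of 1000, 872 and 1099 on null, 600.1, 590.1 and 684 on heterozygous and 680.1, 522 and 718 on wild-type arrays. All null values lay above all other values, and the heterozygous and wild-type ranges overlapped. Ccne2 rose by 0.63 in null against wild type (SE 0.12, adjusted p = 0.00291) and by 0.65 in null against heterozygous cells (SE 0.12, adjusted p = 0.00269), and its change in heterozygous against wild type was -0.02 (adjusted p = 0.965). It passed in both comparisons of null cells under each of 19 alternatives, with adjusted p-values up to 0.0257. Ccne1, its paralog, read 266, 196 and 208 on null, 220, 254 and 265 on heterozygous and 258, 253 and 222 on wild-type arrays. The 3 groups of Ccne1 overlapped by this brightest probe set, whose suffix marks probes shared with other sequences. Its log2 change was -0.13 in null against wild type (95% interval -0.39 to 0.13, adjusted p = 0.534). A dimmer Ccne1 probe set read 88.8, 75.1 and 74.95 on null, 111.7, 95.1 and 105.5 on heterozygous and 108.5, 92.0 and 95.5 on wild-type arrays. There the null values were the lowest, by -0.27 against wild type and -0.34 against heterozygous (adjusted p = 0.1775 and 0.105, over probe sets). The difference between the paralogs was not tested.

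**Figure D3:**
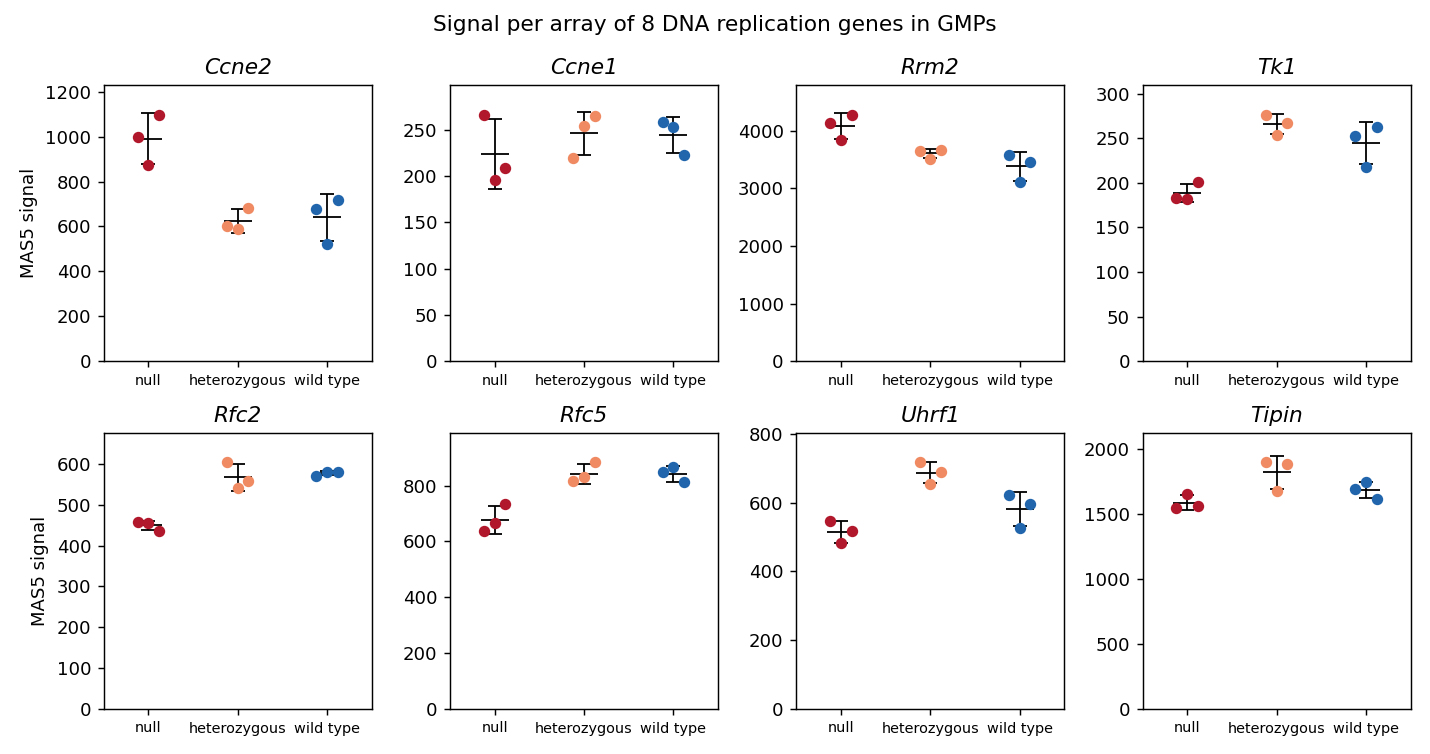
Points give the MAS5 signal of each array for 8 replication genes in null, heterozygous and wild-type GMPs, with bars for the mean and SD of 3 arrays. Null values of Ccne2 and Rrm2 lie above, and those of Tk1, Rfc2 and Rfc5 below, all other values. The groups of Ccne1 overlap by the probe set shown.

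None of the 5 primase and polymerase genes passed. Prim1 and Prim2 encode the primase subunits, Pola1 the catalytic subunit of the polymerase that extends primers, and Pole and Pold1 those of the leading- and lagging-strand polymerases. Pole read 219, 172 and 184 on null, 201, 246 and 200.4 on heterozygous and 284, 254 and 209.9 on wild-type arrays. The null and wild-type values of Pole overlapped through replicate 1 of the null group, and the log2 change was -0.36 (SE 0.13, adjusted p = 0.0769). Without wild-type replicate 3 it was called lower. The other 4 genes lay between -0.04 and 0.12.

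In the clamp and clamp loader group, 2 of 6 genes fell in null cells. RFC opens the PCNA ring and places it on DNA, and Rfc2 to Rfc5 encode its small subunits. Rfc2 had signals of 457, 456 and 436 on null, 604, 540.4 and 558 on heterozygous and 571, 579.9 and 581 on wild-type arrays. All 3 null values lay below the other 6. Rfc2 fell by 0.35 in null against wild type (SE 0.08, adjusted p = 0.00724) and by 0.33 against heterozygous cells (SE 0.08, adjusted p = 0.0128). Without null replicate 3 or heterozygous replicate 1 the fall against heterozygous cells did not pass (adjusted p = 0.0524 and 0.0535). Both of its other probe sets, whose suffix marks probes shared with other sequences, gave smaller differences of -0.07 and -0.11 against wild type (adjusted p = 0.727 and 0.731, over probe sets). The mean over its probe sets did not pass in either comparison (adjusted p = 0.286 against wild type and 0.253 against heterozygous).

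Rfc5 read 636, 664.5 and 734 on null, 814.5, 831 and 883 on heterozygous and 848, 865 and 812 on wild-type arrays, again with null below all others. It fell by 0.31 in both comparisons (SE 0.08 in both, adjusted p = 0.0171 against wild type and 0.0178 against heterozygous). The call against wild type was lost when null replicate 1 (adjusted p = 0.0702) or wild-type replicate 2 (0.053) was left out. The call against heterozygous cells was lost when null replicate 1 (0.0714) or heterozygous replicate 2 or 3 (0.051 and 0.0656) was left out. Rfc1, the large subunit, Rfc3, Rfc4 and Pcna lay between -0.07 and 0.04 in null against wild type. Pcna read 2923, 3128 and 2894 on null, 3158, 2899 and 2940.0 on heterozygous and 3304, 2979 and 3090.0 on wild-type arrays, and the 3 groups overlapped.

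Genes of the single-strand binding protein RPA and of Okazaki fragment maturation did not pass. Rpa1, Rpa2 and Rpa3 gave 0.13, -0.14 and -0.12 in null against wild type. Fen1, the flap nuclease, and Lig1, the ligase that seals the fragments, gave 0.03 and -0.11. Fen1 was higher on every heterozygous array (2343, 2226 and 2464) than on wild-type arrays (2180.0, 2088 and 1957), by 0.18 on the log2 scale (adjusted p = 0.285).

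Of the 4 genes that supply deoxynucleotides, Rrm2 rose and Tk1 fell in null against wild-type cells, and Rrm1 and Tyms did not pass. Rrm2, the regulated subunit of ribonucleotide reductase, read 4129, 3831 and 4281 on null, 3650, 3516 and 3658 on heterozygous and 3586, 3106 and 3456 on wild-type arrays. All null values lay above the others. The log2 rise against wild type was 0.27 (SE 0.07, adjusted p = 0.0198), and against heterozygous cells the difference was 0.18 (adjusted p = 0.123). The probe set that stands for Rrm2 carries the suffix for probes shared with other sequences. The rise was lost when null replicate 1 or 3 or wild-type replicate 2 was left out (adjusted p = 0.0598, 0.0844 and 0.0823), and also with no filter on dim genes (0.0502). The mean over its 3 probe sets gave 0.16 (adjusted p = 0.194). Rrm1, its large partner, differed from wild type by -0.06 in null cells (adjusted p = 0.767) and by -0.21 in heterozygous cells (adjusted p = 0.389).

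Tk1, the cytosolic thymidine kinase of the salvage route, had signals of 183, 182 and 201 on null, 276.5, 254 and 267.5 on heterozygous and 252, 217.5 and 263 on wild-type arrays. The null values were the 3 lowest of the 9. Tk1 fell by 0.47 in null against heterozygous cells (SE 0.10, adjusted p = 0.00624) and by 0.35 against wild type (SE 0.10, adjusted p = 0.028). The fall against heterozygous cells passed under all 19 alternatives. The fall against wild type was lost without null replicate 1 or 2 (adjusted p = 0.0794 and 0.0748) or wild-type replicate 1 or 3 (0.0825 and 0.107). Tyms, which makes thymidylate de novo, had low signals, with 39.4, 41.6 and 22.6 on null, 46.8, 41.4 and 37.5 on heterozygous and 42.9, 51.0 and 63.2 on wild-type arrays. Its null values lay below its wild-type values, by -0.48 (SE 0.19, adjusted p = 0.0987), and its other tested probe set gave 0.01.

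Among genes for chromatin copying, Uhrf1, which brings the maintenance methyltransferase Dnmt1 to newly copied DNA, read 546, 481 and 518 on null, 718, 656 and 689 on heterozygous and 622, 525 and 596 on wild-type arrays. The heterozygous values were the 3 highest, and null and wild-type values overlapped. Uhrf1 fell by 0.41 in null against heterozygous cells (SE 0.09, adjusted p = 0.00695), whereas its difference from wild type was -0.17 in null cells (adjusted p = 0.229) and 0.24 in heterozygous cells (adjusted p = 0.246). Its dimmer probe set gave 0.02 in null against heterozygous cells, and the mean of both did not pass (adjusted p = 0.275). Chaf1b, a subunit of the replication-coupled histone chaperone, and Slbp, which binds histone mRNA, gave 0.08 and -0.11 in null against wild type. A dimmer Slbp probe set gave 0.45 in null and 0.66 in heterozygous cells against wild type (limma adjusted p = 0.329 and 0.3575, over probe sets). Tipin, which protects stalled forks with Timeless, gave -0.09 against wild type and -0.19 against heterozygous cells (adjusted p = 0.0968).

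**Figure D4:**
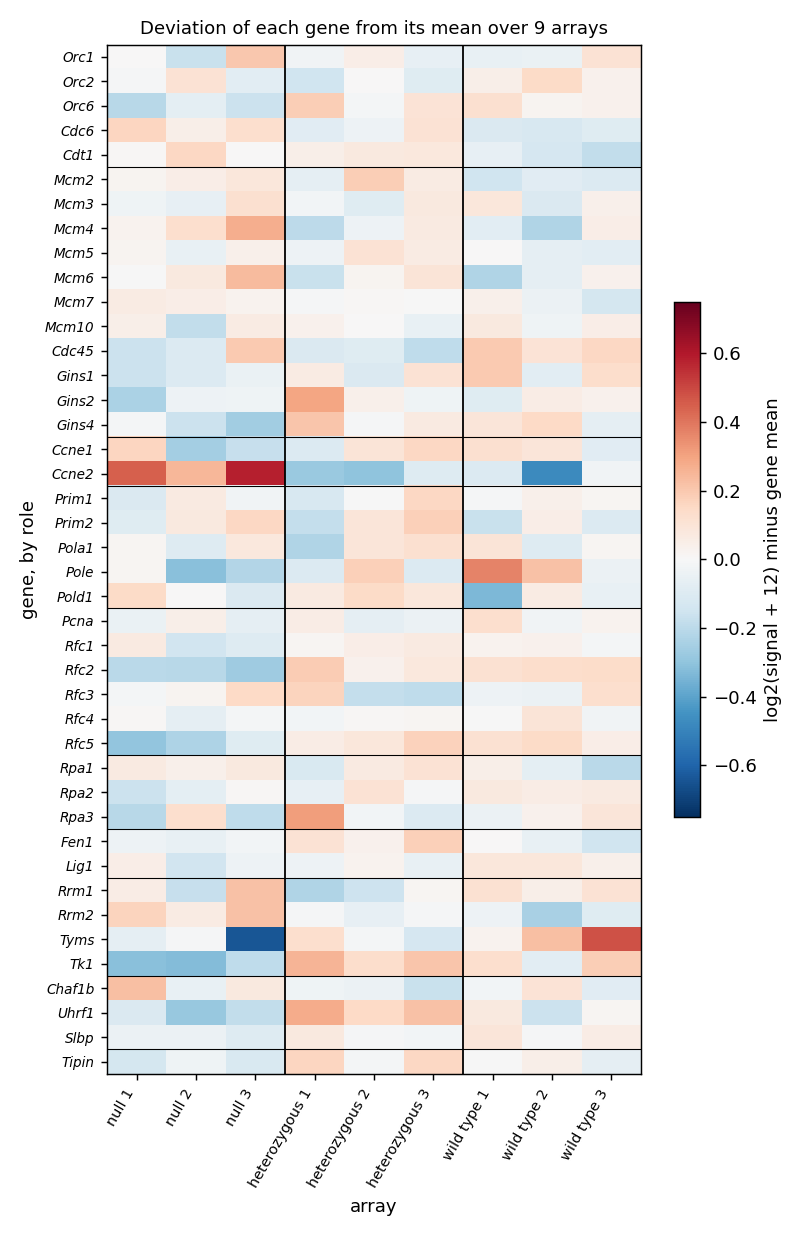
Colours give the log2(signal + 12) of each of the 42 genes (rows, by role) on each of the 9 arrays (columns) minus the mean of that gene over all arrays. Ccne2 lies above its mean on all 3 null arrays, and Rfc2, Rfc5 and Tk1 are below their means on all 3 null arrays.

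Replication genes outside the list were taken from a second list of 51 genes, of which 50 had a probe set and were tested. In null against wild type 5 rose and 5 fell, 20% beside 15.7% of all genes. In null against heterozygous cells 4 rose and 8 fell, 24% beside 14.3%, and in heterozygous against wild type 1 rose, 2% beside 1.39%. These tallies use the brightest probe set of each gene. When limma was fitted to single probe sets, dimmer ones of some uncalled genes passed in null against wild type. They were lower for Top1 (-1.25, adjusted p = 0.000314), Nasp (-0.76, 0.00365), Dtymk (-0.48, 0.00377), Rnaseh2c (-0.49, 0.00677) and Topbp1 (-0.73, 0.024). That of Asf1a was higher (0.59, 0.0376). Both subunits of the origin-firing kinase were among the 5 falls against wild type in the tally. Its catalytic subunit gene Cdc7 read 457, 399.6 and 375 on null, 450.1, 500.4 and 517 on heterozygous and 565, 530.0 and 594 on wild-type arrays, and fell by 0.45 (SE 0.09, adjusted p = 0.00559). Its activating subunit gene Dbf4 read 651.5, 549 and 641 on null, 674, 754 and 759 on heterozygous and 747, 837 and 777 on wild-type arrays, and fell by 0.36 (SE 0.09, adjusted p = 0.0157). For both genes the null values lay below all wild-type values. The fall of Dbf4 was lost when null replicate 2 (adjusted p = 0.0631) or wild-type replicate 2 (0.0577) was left out. The mean over probe sets did not pass for either gene, at -0.0017 for Dbf4 (adjusted p = 0.996) and -0.29 for Cdc7 (0.149). A dimmer probe set of Dbf4 gave 0.35 and of Cdc7 -0.14 (adjusted p = 0.447 and 0.757, over probe sets).

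The other falls in null against wild-type cells were those of Rnaseh1 (-0.48, SE 0.11, adjusted p = 0.00872), a nuclease of RNA in RNA-DNA hybrids, of the GINS subunit gene Gins3 (-0.38, adjusted p = 0.0272) and of Timeless (-0.30, adjusted p = 0.0496), the partner of Tipin. Rnaseh1 read 191, 177 and 158 on null, 257.5, 199 and 238 on heterozygous and 249, 253 and 247 on wild-type arrays, with null values the lowest. Gins3 read 122, 119.6 and 98.2 on null, 163, 154 and 153 on heterozygous and 154, 148 and 150.3 on wild-type arrays, with the null values the lowest 3. Gins3 did not pass without null replicate 3 or any 1 of the wild-type replicates 1, 2 and 3 (adjusted p = 0.123, 0.0725, 0.0537 and 0.068). Timeless did not pass with any single array left out other than null replicate 1 (adjusted p of 0.053 to 0.181), and it was kept in 4 of 19 alternatives. The rises were those of Dna2 (0.36, SE 0.08, adjusted p = 0.00706), a nuclease-helicase that trims Okazaki flaps, the clamp loader factor gene Dscc1 (0.36, adjusted p = 0.0218), the polymerase epsilon subunit genes Pole2 (0.29, adjusted p = 0.0244) and Pole4 (0.39, adjusted p = 0.0377), and Mcmbp (0.29, adjusted p = 0.0355), an MCM-binding protein.

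Dna2 read 728, 664 and 637 on null, 603, 608 and 589 on heterozygous and 525.5, 509 and 539 on wild-type arrays, with each null value above all others. Other probe sets of these genes gave other values. Dimmer probe sets of Dna2 gave -0.40 and -0.35, of Pole2 -0.51, of Pole4 -0.03, of Dscc1 0.01 and of Mcmbp 0.14 and -0.56, the last with an adjusted p of 0.0301 over probe sets. Dscc1 did not pass without null replicates 2 or 3 or wild-type replicates 1 or 2 (adjusted p of 0.051 to 0.103), and Pole2 not without any 1 null replicate or wild-type replicate 1 (0.0519 to 0.0918). Pole4 did not pass without null replicates 1 or 2 or wild-type replicates 1 or 2 (0.0722 to 0.14). Mcmbp did not pass without null replicates 1 or 3, heterozygous replicate 2 or wild-type replicates 2 or 3 (0.0544 to 0.122).

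In null against heterozygous cells the falls included 2 of the 3 subunit genes of ribonuclease H2, which removes ribonucleotides from DNA. Rnaseh2c read 549, 630.4 and 611 on null, 820.5, 835 and 728 on heterozygous and 622, 749 and 694 on wild-type arrays. It fell by 0.41 against heterozygous cells (SE 0.09, adjusted p = 0.00982), with no overlap, and both of its other probe sets gave lower values too (-0.47 and -0.65). Rnaseh2a fell by 0.42 (adjusted p = 0.016), though not without null replicate 1 or heterozygous replicate 1 (0.0688 and 0.0699). The polymerase delta subunit gene Pold2 read 183, 218 and 185 on null, 271, 285 and 259.9 on heterozygous and 167, 208 and 199.9 on wild-type arrays. The heterozygous values of Pold2 were the 3 highest, with a rise of 0.48 against wild type (SE 0.11, adjusted p = 0.0429) and a fall of 0.46 in null against heterozygous cells (adjusted p = 0.0128). The rise did not pass without null replicates 1 or 3, any 1 heterozygous replicate or wild-type replicates 1 or 3 (0.0513 to 0.176), and the fall not without null replicate 3 or heterozygous replicate 2 (0.053 and 0.0558).

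The remaining calls in null against heterozygous cells had log2 sizes of 0.26 to 0.44, and each was lost without at least 1 of several arrays. Gins3 fell by 0.43, Rnaseh1 by 0.37, Timeless by 0.33, the polymerase alpha subunit gene Pola2 by 0.35 and Dut, whose product removes dUTP, by 0.26. Orc4, an origin recognition subunit gene, rose by 0.44, the reductase subunit gene Rrm2b by 0.41, Mcmbp by 0.32 and the S-phase cyclin gene Ccna2 by 0.29. Their adjusted p-values were 0.0146 to 0.0395. A dimmer probe set of Ccna2 went the other way, at -0.20 (adjusted p = 0.222, over probe sets). So did dimmer ones of Rrm2b, at -0.34 and -0.28 (0.25 and 0.558), and of Mcmbp, at -0.34 (0.204). Another dimmer probe set of Mcmbp gave 0.002. Under the alternatives the Ccna2 rise went down to 0.044 (adjusted p up to 0.779). Gins3 did not pass without null replicate 3 or heterozygous replicate 1 (0.0746 and 0.06), Orc4 not without null replicate 1 or heterozygous replicates 1 or 3 (0.0504 to 0.0699), and Timeless not without null replicates 2 or 3 or any 1 heterozygous replicate (0.0623 to 0.115). Rnaseh1 did not pass without null replicates 2 or 3 or heterozygous replicates 1 or 3 (0.0673 to 0.144). Pola2 failed without null replicates 2 or 3, any 1 heterozygous replicate or wild-type replicate 3 (0.0503 to 0.122). Mcmbp, Rrm2b, Dut and Ccna2 each failed without null replicate 1, null replicate 3 or heterozygous replicate 2 (0.0672 to 0.1415), and also without heterozygous replicate 3 for Mcmbp and replicate 1 for the other genes (0.0676 to 0.139).

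**Figure D5:**
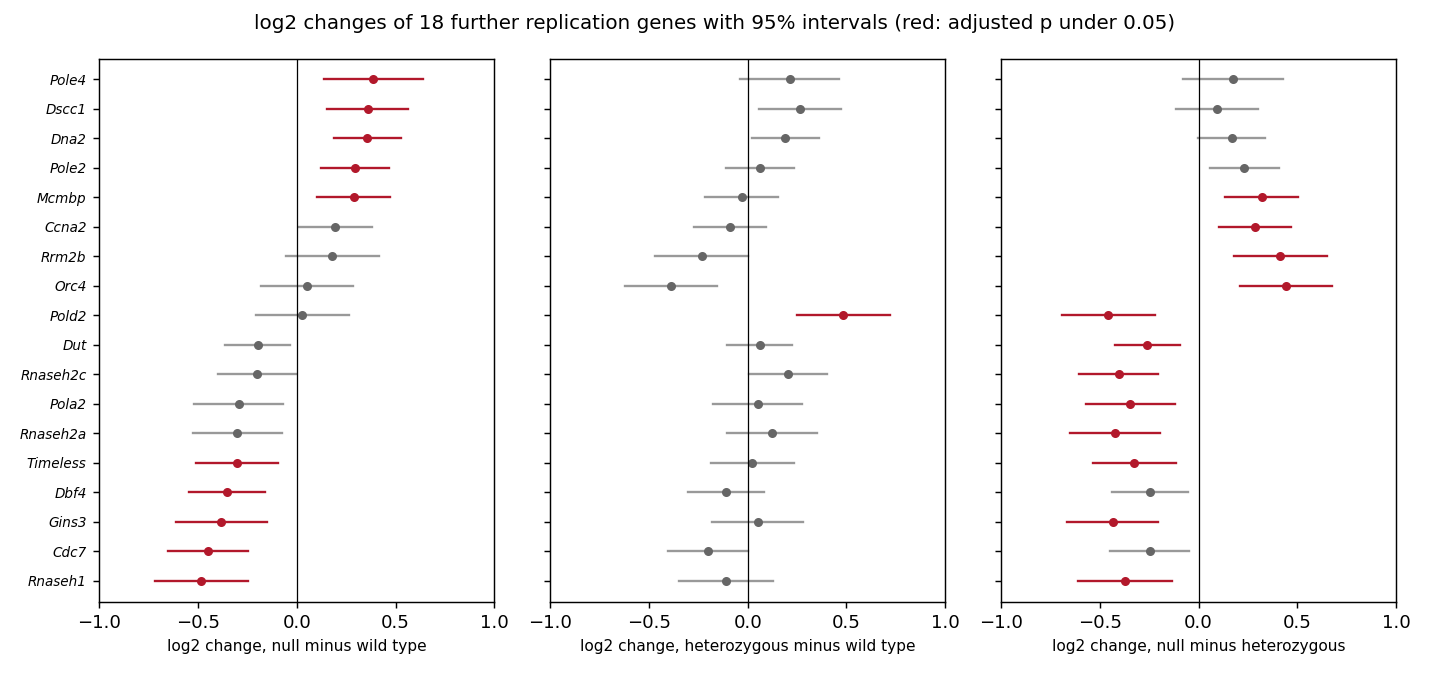
Points give log2 changes with 95% intervals of the limma fit for the 18 replication genes of the second list that passed in at least 1 of the 3 comparisons, with red for an adjusted p under 0.05. In null minus wild type 5 are red above 0 and 5 below, in heterozygous minus wild type Pold2 alone is red, and in null minus heterozygous 4 are red above 0 and 8 below.

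Markers of other cells differed between the genotypes, some in null cells and some in both null and heterozygous cells. The 7 dendritic markers summed to 571 to 748 on null, 1074 to 1192 on heterozygous and 906 to 1113 on wild-type arrays. Of these, 3 of 7 (H2-Aa, H2-Eb1 and Irf8) fell in null against wild type and against heterozygous cells. Irf8 made up most of the dendritic sum, with mean signals of 509 on null, 808 on heterozygous and 662 on wild-type arrays. Whether GMPs or other cells expressed it was not tested. Of 7 B lymphoid markers 6 had a probe set, and they summed to 539 to 649 on null, 1076 to 1187 on heterozygous and 1185 to 1435 on wild-type arrays. Ighm made up most of that sum and was the 1 of 3 tested that fell in null cells against both other groups, while Cd79a, Pax5 and Ebf1 lay below the threshold for testing. The 6 T and NK lymphoid markers summed to 45.6 to 63.8 on null, 41.1 to 66.0 on heterozygous and 73.0 to 84.7 on wild-type arrays, and 1 of 3 tested (Klrd1) fell in null against wild type. Mast cell, basophil and eosinophil markers summed to 4552 to 6588 on null, 3571 to 4072 on heterozygous and 3673 to 5674 on wild-type arrays, with 2 of 7 called higher and 1 lower in null against wild type. The log2 change there lay above 0 for 6 of the 7, the highest being 0.94. In null against heterozygous cells 2 of the 7 were called higher and 0 lower. The marker called lower against wild type, Fcer1a, fell by 2.25 in null and fell by 3.11 in heterozygous cells (adjusted p = 0.000774 and 0.000198). Mature neutrophil markers overlapped between groups in sum (2397 to 8694 on null, 2793 to 5050.0 on heterozygous and 3951 to 7359 on wild-type arrays), and 2 of 8 tested, the granule genes Ltf and Ngp, fell in both null and heterozygous cells. Ltf fell by 2.09 in null and fell by 1.97 in heterozygous cells against wild type (adjusted p = 8.01e-05 and 0.000411), and Ngp fell by 2.12 and fell by 1.86 (0.00109 and 0.0144). In null against heterozygous cells 0 of these 8 were called. Wild-type replicate 2 had the highest wild-type signal of Ltf, Ngp and Fcer1a. On wild-type replicates 1, 2 and 3 Ltf read 103, 174 and 76.5, and Ngp read 328, 784 and 316. Fcer1a read 106, 453 and 172 on them. Calls of these markers without replicate 2 are not given here. The part of these other cells in the results for replication genes was not tested.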

How the data were processed

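RNA of sorted GMPs was measured on 9 Affymetrix arrays of 45101 probe sets, 3 per genotype. The deposited values are linear signal intensities, made with MAS5 per the submitters' processing notes, with no version or setting given in the sources used here. The mean after trimming 2% from each end equalled 100 on all 9 arrays, so intensity values were scaled before they were deposited. Detection calls were not used here. Arrays give no read depth, so precision depends on how many there are.

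Gene names came from the platform annotation: 34945 probe sets had 1 symbol, 932 several, 9160 none and 64 were controls. Values were tested as log2(signal + 12), so fold changes of dim genes are understated. Genes entered when their mean reached percentile 40 over all probe sets (12347 of 18193 genes). The model was limma's (version 3.58.1, R 4.3.3), with lmFit and an eBayes intensity trend, over 9 arrays and 3 groups, with two-sided p-values adjusted by the Benjamini-Hochberg method over all genes tested and calls under 0.05. The rule for named genes took all members by role, with the value of every array for those called, and those genes of the second list called in any comparison. Uncalled members shown array by array were chosen after their values were seen. Members, lists and tests were chosen with earlier results of these data known. Alternatives changed the pseudocount, filter, normalization, variance prior, arrays, weights, probe set rule and replicate block, or left out each array; for genes of the second list they were chosen after seeing the data. Of the 42 probe sets that stood for a gene, 7 carry a suffix for probes shared with other sequences (x), 5 for probes shared by several transcripts (s) and 7 for transcripts of 1 gene (a).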

Additional observations from a re-analysis of the deposited data

How the results depend on the processing

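With 3 arrays per group and no detection calls, small changes of dim genes could not be resolved. Of the 10 member calls, tried under 19 alternatives each (190 values), 166 kept the call, 24 lost it and 0 changed sign. For the 23 calls of the second list, 309 of 437 were kept, 123 lost and 5 changed sign. The 5 all came from averaging all probe sets of a gene, as null against wild type for Pole2 (-0.11), Mcmbp (-0.044) and Dna2 (-0.13) and null against heterozygous for Mcmbp (-0.0048) and Rrm2b (-0.056).

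In null against wild type, without the intensity trend the call counts were 2 members, 4 genes of the second list and 1290 of all genes, against 5, 10 and 1937, and averaging probe sets left 3 members. With 1 array left out they were 2 to 5 members (2 without null replicate 1, 3 without wild-type replicate 2), 6 to 9 genes of the second list (6 without null replicate 3 or wild-type replicates 1 or 2) and 1258 to 1938 of all genes (lowest without null replicate 3), and the member median was -0.059 to -0.026. In null against heterozygous cells the counts without the trend were 6 genes of the second list and 1103 of all genes, against 12 and 1770, and averaging probe sets left 6 of the second list. The member median was -0.054 after quantile normalization and -0.091 with averaged probe sets. With 1 array left out there were 4 to 5 members, 3 to 12 genes of the second list (3 to 7 without null replicates 1 or 3 or any heterozygous replicate), 1033 to 1897 of all genes (1064 without null replicate 3, lowest without heterozygous replicate 1) and a median of -0.061 to -0.019. In heterozygous against wild type 0 members were called under any of the 19 alternatives. All genes numbered 112 with no filter, 83 without the trend, 86 with averaged probe sets and 99 to 169 with 1 array left out (99 and 102 without heterozygous replicates 2 and 3), against 172. Pold2 was not called, leaving 0 of the second list, with no filter, without the trend, with only the 2 groups compared or with averaged probe sets, and 0 to 1 were called with 1 array left out. Without the intensity trend Rfc5 (adjusted p = 0.0633), Tk1 (0.0564) and Rrm2 (0.098) were not called against wild type, nor Rfc5 against heterozygous (0.066). Quantile normalization ended the calls of Pole2 (0.0556), Mcmbp (0.0662) and Timeless (0.0634) against wild type and left 7 of the second list, Timeless was also lost with a pseudocount of 2 (0.0504) or no filter (0.0618), and with only the 2 groups compared Tk1 was not called against wild type (0.0523). The cause of these shifts was not tested.

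Replicate numbers were not treated as pairs in the main fit. Deviations of same-numbered arrays correlated at -0.03 to 0.14 across genes, and those of differently numbered arrays at -0.15 to 0.09. These ranges overlap, and small variation shared by same-numbered arrays is not excluded. With the replicate number as a block, the fit called 6 (with Mcm4 added), 5 and 0 members and 2111, 1934 and 201 genes in null against wild type, null against heterozygous and heterozygous against wild type. Without the block the gene counts were 1937, 1770 and 172.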
